A study of Drosophila melanogaster with 12 samples.

Results

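The genes described here act in the last inductive step of ommatidium assembly in the developing eye of Drosophila melanogaster, the step that recruits photoreceptor R7 and the lens-secreting cone cells. They are boss, sev, phyl, sina, ttk, pros and sv, chosen by symbol, and all 7 were found among the 10893 genes measured. Messenger RNA was profiled by RNA sequencing of poly(A)-selected RNA in 12 libraries from larvae of the strain w[11-18], which all groups share. For the eye-antennal imaginal disc there were eye parts and antenna parts of 96 and 120 h after egg laying, and 1 library of discs with cuticular mouthparts of 72 h. Whole discs were taken at 72, 96 and 120 h and from white prepupae (WPP, animals that have just stopped moving to pupariate), and whole larvae at 72, 96 and 120 h. The larvae were kept at a single temperature on yeast-glucose medium. Each group was 1 library, and neither the sex nor the number of animals behind a library is given in the sources used here. The whole disc contains the tissue of the eye and antenna parts.

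The eye-antennal disc is an epithelial sac that gives rise to the eye, the antenna and much of the head capsule. During late larval life a front called the morphogenetic furrow crosses its eye part, and behind it each ommatidium is built cell by cell from the founder photoreceptor R8. R8 carries the ligand Boss, which is bound by the receptor tyrosine kinase Sevenless on the R7 precursor. The signal passes through Ras and MAP kinase to turn on phyl, whose product joins Tramtrack to the ubiquitin ligase Sina and so leads to its breakdown. Tramtrack holds back neuronal fate, and in its presence precursors that do not become R7 can become cone cells. The homeodomain protein Prospero marks R7 and cone cells, and Shaven, a Pax2-type factor, is needed in cone and primary pigment cells.

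Values are FPKM, which divide fragments by transcript length and by the library total, so that levels of different genes can be set side by side. Tests were run on log2(FPKM + 1), on which folds of low genes are understated. Library sums of FPKM ran from 939303 to 2210255, between 8212 and 9664 genes stood at 1 FPKM or more, and the number of reads is unknown. Marker genes followed the labels: the eye markers gl, ey, so and eya summed to 341.3 FPKM at 120 h and 450.9 at 96 h in the eye part, against 26.3 and 32.4 in the antenna part. The antenna markers Dll, ss, al and disco summed to 27.5 FPKM at 120 h and 19.8 at 96 h in the eye part, against 208.7 and 245.8 in the antenna part. In mixed tissue a lower level can come from fewer cells of a type or from less RNA per cell, and these cannot be told apart here. With no replicates, the deviation of the whole disc from the weighted mean of its parts served as a gauge of the spread between separately made libraries. Its median over genes was 0.14 on the log2 scale at 96 h and 0.23 at 120 h, and 0.23 is called the library spread below. As a median it is exceeded by many genes, and 5.76% at 96 h and 5.72% at 120 h deviated by more than 2-fold. The weights were set on genes of the same libraries, so the gauge may understate the spread between single libraries. A gap above it is therefore no test. Libraries within it from one to the next, in order of level, can together span more.

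The ligand gene boss (FBgn0000206, chromosome arm 3R), which encodes the membrane protein of R8 described above, was the lowest of the 7 genes in the eye part at 120 h. It stood at 4.09 FPKM at 120 h and 3.0 at 96 h in the eye part, against 0.0183 and 0.00611 in the antenna part. In the whole disc it was 0.0357 FPKM at 72 h, 1.93 at 96 h, 3.06 at 120 h and 2.81 at WPP, and 0.035 in the disc with mouthparts at 72 h. The whole larva had 0.00548 FPKM at 72 h, 0.0346 at 96 h and 0.230 at 120 h. The 5 libraries of eye parts and whole discs from 96 h on were all at 1.93 FPKM or more, and the other 7, of antenna parts, discs at 72 h and whole larvae, were at 0.230 or less. Among those 5, the eye part at 96 h, the whole disc at 120 h and the WPP disc lay within the library spread from one to the next, with the eye part at 120 h above them and the whole disc at 96 h below.

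The receptor gene sev (FBgn0003366, X chromosome) was high in the same 5 libraries as boss, at a higher level. It stood at 37.3 FPKM at 120 h and 21.7 at 96 h in the eye part, against 2.03 and 3.60 in the antenna part. The whole disc had 2.53 FPKM at 72 h, 13.4 at 96 h, 23.8 at 120 h and 26.0 at WPP, and the disc with mouthparts 2.39. In the whole larva it was 2.92 FPKM at 72 h, 2.78 at 96 h and 9.39 at 120 h. Unlike boss, sev was above 2 FPKM in every library, and the whole larvae at 72 and 96 h, the disc at 72 h with and without mouthparts and the antenna part at 120 h lay within the library spread from one to the next. In the 5 libraries with boss above 1 FPKM the ratio of sev to boss was between 6.95 and 9.25.

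The adaptor gene phyl (FBgn0013725, 2R), also known for its role in sensory organ precursors, had its highest level in the eye part at the earlier age. It stood at 39.7 FPKM at 120 h and 43.0 at 96 h in the eye part, against 9.54 and 5.22 in the antenna part. The whole disc had 4.33 FPKM at 72 h, 28.2 at 96 h, 24.7 at 120 h and 25.2 at WPP, and the last 3 of these lay within the library spread from one to the next. The disc with mouthparts was at 4.33 FPKM, and the whole larva at 0.774 at 72 h, 2.08 at 96 h and 3.45 at 120 h. The antenna part at 120 h, at 9.54 FPKM, lay apart both from the eye and disc libraries above it and from the antenna part at 96 h below it.

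The ubiquitin ligase gene sina (FBgn0003410, 3L) ran from 21.5 FPKM in the WPP disc to 31.1 in the antenna part at 120 h over all disc tissue. It stood at 28.3 FPKM at 120 h and 27.4 at 96 h in the eye part, against 31.1 and 29.6 in the antenna part. The whole disc had 23.1 FPKM at 72 h, 25.9 at 96 h, 28.8 at 120 h and 21.5 at WPP, and the disc with mouthparts 21.8. All 9 libraries of disc tissue lay within the library spread from one to the next. They did not as a set, since the WPP disc differed from the whole disc at 120 h by log2 -0.41. The whole larva followed below the disc libraries at 5.74 FPKM at 72 h, 8.12 at 96 h and 17.3 at 120 h.

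The repressor gene ttk (FBgn0003870, 3R), a BTB zinc finger gene, was the highest of the 7 in every library of disc tissue except the disc at 72 h without mouthparts, where sina stood at 23.1 FPKM and ttk at 21.7. It stood at 65.3 FPKM at 120 h and 45.9 at 96 h in the eye part, against 71.9 and 45.3 in the antenna part. The whole disc had 21.7 FPKM at 72 h, 45.2 at 96 h, 74.6 at 120 h and 125.7 at WPP, a higher level at each later stage. The disc with mouthparts was at 24.2 FPKM and the whole larva at 12.9 at 72 h, 15.9 at 96 h and 24.2 at 120 h. The 3 disc libraries of 96 h lay within the library spread of each other, and so did the 3 of 120 h, so that at these ages ttk was ordered by age and not by part. The reference annotation gives ttk 8 transcripts, and the values do not separate its protein forms, of which Ttk88 is the one known as the target of Sina and Phyllopod in the eye.

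The homeobox gene pros (FBgn0004595, 3R) stood at 7.87 FPKM at 120 h and 2.79 at 96 h in the eye part, against 1.5 and 0.593 in the antenna part. The whole disc had 0.733 FPKM at 72 h, 1.57 at 96 h, 5.82 at 120 h and 26.6 at WPP. In the disc with mouthparts at 72 h it was 2.54 FPKM, and in the whole larva 2.10 at 72 h, 4.47 at 96 h and 21.2 at 120 h. The WPP disc and the oldest larva were the highest libraries, each apart from its neighbours by more than the library spread.

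The Pax2-type gene sv (FBgn0005561, chromosome 4) stood at 12.6 FPKM at 120 h and 2.59 at 96 h in the eye part, against 1.47 and 0.614 in the antenna part. The whole disc had 0.867 FPKM at 72 h, 1.73 at 96 h, 6.33 at 120 h and 7.29 at WPP, and the disc with mouthparts 0.848. In the whole larva it was 0.101 FPKM at 72 h, 0.0881 at 96 h and 0.383 at 120 h, below all libraries of disc tissue. The eye part at 120 h was the highest library and lay apart from the next, the WPP disc, by more than the library spread.

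**Figure D1:**
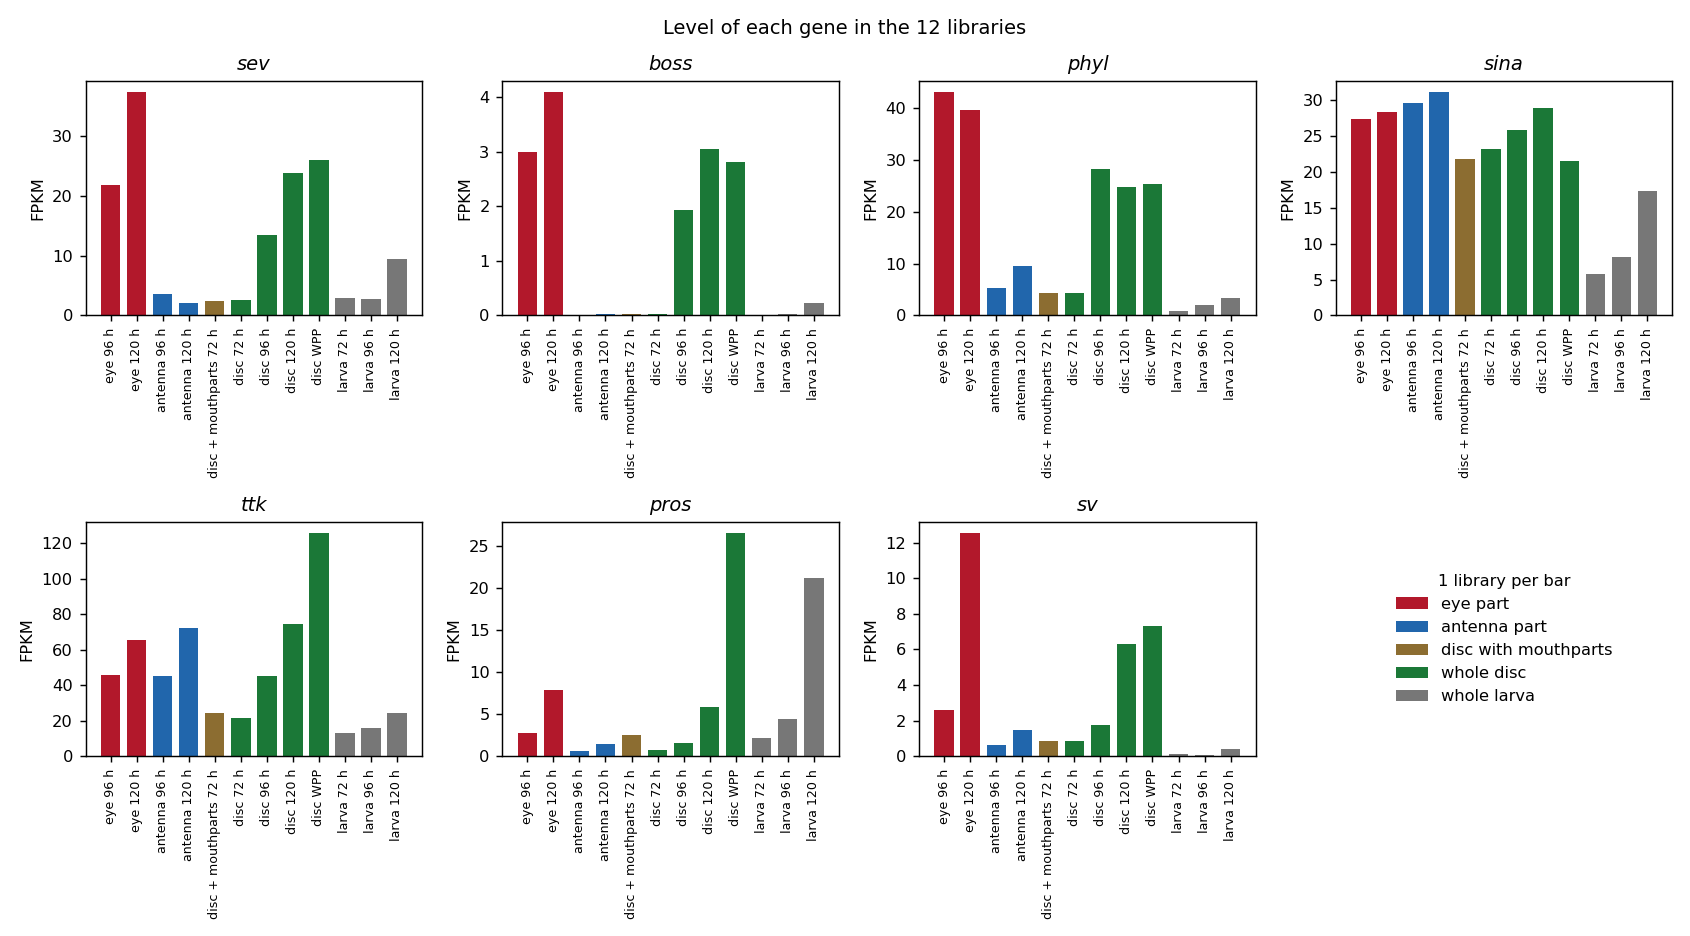
FPKM of each of the 7 genes (1 panel per gene, each with its own axis from 0) in the 12 libraries, 1 library per bar, coloured by tissue. sev, boss, phyl and sv are highest in the eye part, and sina runs from 21.5 to 31.1 FPKM across disc tissue. ttk follows age, and pros is highest in the WPP disc and the whole larva at 120 h.

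Where strand is not used in counting, the reads of overlapping genes cannot be told apart, and the sources used here do not say whether it was. In the reference annotation, which is of another build, no gene overlaps boss, phyl or ttk. An antisense RNA gene lies inside sev and shares exon sequence with it, and sina lies inside the opsin gene Rh4 on the other strand without shared exons. Neither of these neighbours was analysed here. The gene sv shares exon sequence with Cals, a calsyntenin gene on the other strand, which stood at 84.8 FPKM at 120 h and 65.4 at 96 h in the eye part, against 77.6 and 57.8 in the antenna part. The span of pros holds the kinase genes KP78a and KP78b on the other strand, with no shared exon, and 3 long noncoding RNA genes, of which CR46008 shares exon sequence with pros. Of these only KP78b was analysed here.

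Eye and antenna parts of both ages were compared to find which of the genes mark the eye territory. The ligand, its receptor and the adaptor, boss, sev and phyl, were higher in the eye part, and sina and ttk had nearly equal levels in the parts. Limma, with Benjamini-Hochberg adjustment over 9081 genes, called 3 of the 7 genes higher in eye parts and 0 lower at an adjusted p under 0.05, where it called 1.75% of all genes higher and 1.39% lower. At an unadjusted p under 0.05 it was 5 of 7, against 14.8% of all genes. The median difference of the 7 was 1.81 on the log2 scale and that of all genes -0.020. The filter of 1 FPKM in at least 2 of the 6 libraries was passed by all 7. The gene boss passed only through libraries that contain eye tissue, so that its difference was fixed by passing. It is counted in the 3 and the 5 above, where its call adds no evidence.

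The estimate for sev was log2 2.98 (SE 0.41, limma adjusted p = 0.0470), for phyl 2.39 (SE 0.28, adjusted p = 0.0211) and for boss 2.16 (SE 0.31, adjusted p = 0.0346). With a pseudocount of 0.1, which presses low values less, the estimate for boss was 5.01. The estimate for sv was 1.81 (SE 0.39, 95% interval 0.82 to 2.79, adjusted p = 0.0948) and for pros 1.54 (SE 0.31, interval 0.74 to 2.34, adjusted p = 0.0852), both past an unadjusted p of 0.05 and not past the adjusted threshold. For sina the estimate was -0.12 (SE 0.14, interval -0.49 to 0.25, adjusted p = 0.839) and for ttk -0.060 (SE 0.16, interval -0.47 to 0.35, adjusted p = 0.931). The intervals of sina and ttk do not reach a 2-fold difference in either direction. Neuron markers moved with the eye genes: the 5 markers elav, nSyb, Syt1, brp and futsch summed to 178.6 FPKM at 120 h and 91.9 at 96 h in the eye part, against 18.2 and 25.2 in the antenna part. Glia markers were higher for 4 of 4 at both ages, with sums of 66.8 FPKM at 120 h and 58.6 at 96 h in the eye part, against 19.2 and 19.3 in the antenna part. Muscle markers were higher for 0 of 4, with sums of 21.6 and 424.6 FPKM in the eye part, against 161.0 and 3909 in the antenna part, and the part of these tissues in the differences was not tested. All 3 calls rested on both eye libraries, and limma called 0 of the 7 when either of them was left out. Without the antenna part at 96 h it called pros and sv too (adjusted p = 0.0444 and 0.0239), and boss was lost without that at 120 h (0.0519). Without the whole disc of 96 h or of 120 h sev was not called (adjusted p = 0.1065 and 0.0875), nor was boss (0.0614 and 0.0565). The call of sev ended under 5 of the 7 other alternatives that kept the 4 separated parts (adjusted p up to 0.0801), that of boss under 2 of 6 (up to 0.0662) and that of phyl under 1 of 7, eBayes without trend and robust.

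Per age, the difference of sev was 3.66 at 120 h and 2.3 at 96 h, and that of sv was 2.46 at 120 h and 1.15 at 96 h. The difference of phyl was 1.95 at 120 h and 2.82 at 96 h, smaller at the later age. Whether the differences of an age step between the parts exceed chance could not be tested with 1 library each. At 120 h the eye part supplied 96.6% of sev, 99.7% of boss, 86.7% of phyl, 89.2% of pros and 93.1% of sv in the weighted mean of the parts, in which the eye part had a weight of 61%. For sina and ttk it supplied 58.7% of each.

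The whole disc was close to the weighted mean of its parts for most of the genes. At 96 h the whole disc differed from the weighted mean of eye and antenna parts by -0.13 for sev, 0.036 for boss, -0.024 for phyl and -0.20 for pros on the log2 scale. The largest deviation of the 7 genes at 96 h was that of pros, and at 120 h that of sv, at -0.33, with 6.33 FPKM in the whole disc and 8.23 in the weighted mean. The deviations of sev, phyl and pros at 120 h were 0.016, -0.17 and 0.095, smaller than the differences between the parts.

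**Figure D2:**
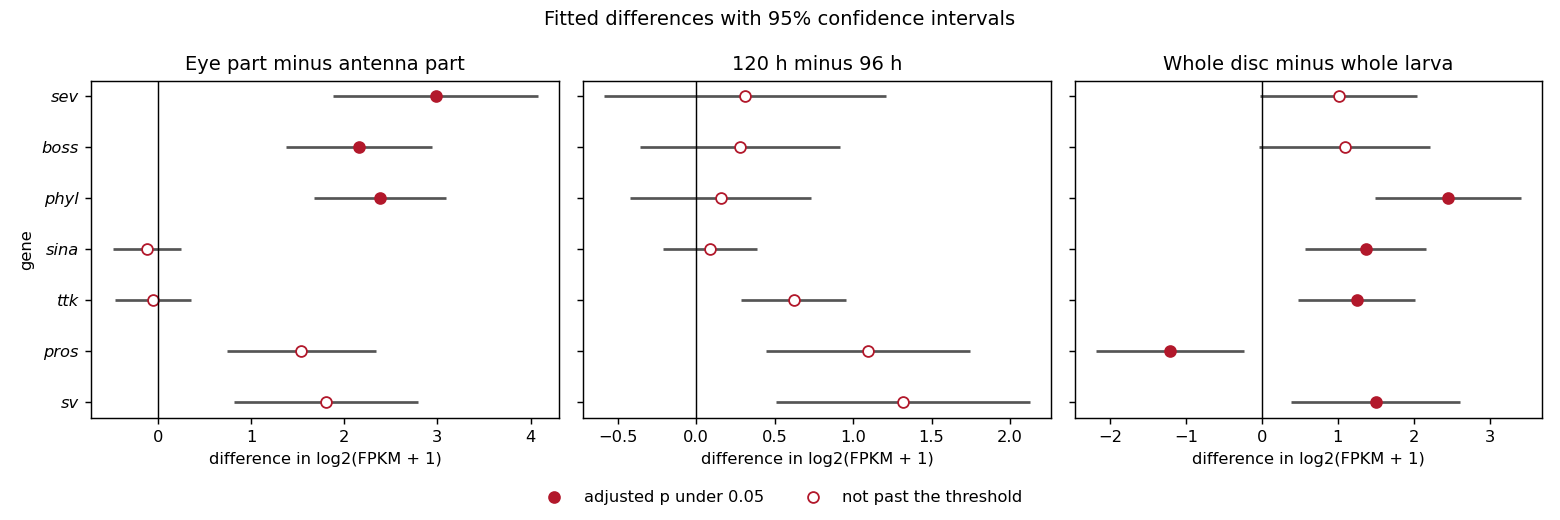
Difference in log2(FPKM + 1) of each gene in the 3 fitted comparisons, with 95% confidence intervals from limma; filled points passed an adjusted p of 0.05. sev, boss and phyl were higher in the eye part than in the antenna part, none of the 7 passed for 120 h against 96 h, and pros alone was lower in the whole disc than in the whole larva. The filter fixed the direction of boss in eye against antenna part and of boss and sv in disc against larva.

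The other genes of the pathway were taken from 5 lists, of which 45 of 49 genes were among the values used here. In the Sev-Ras-MAPK cascade, the chain from receptor to nucleus that many tissues use, limma called 0 of 16 genes between eye and antenna part (2 had an unadjusted p under 0.05), and the median difference was 0.085. The largest estimate was that of RasGAP1, an inhibitor of Ras, at 0.74 (SE 0.18, adjusted p = 0.122). Ras85D itself, the Ras GTPase gene, stood at 129.2 FPKM at 120 h and 141.7 at 96 h in the eye part, against 125.7 and 129.3 in the antenna part. The adaptor gene drk had an estimate of 0.044 and the exchange factor gene Sos one of 0.073.

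Of 10 nuclear regulators acting in R7 and other photoreceptors, limma called 6 higher and 0 lower in eye parts. They were gl, a zinc finger factor, at 4.36 (SE 0.18, adjusted p = 0.00395), the Runt factor lz at 3.16 (SE 0.19, adjusted p = 0.00479), ro, a homeobox gene, at 3.09 (SE 0.39, adjusted p = 0.0382) and the nuclear receptor gene svp at 2.92 (SE 0.21, adjusted p = 0.00674). The other two were the ETS factor genes aop, a repressor that MAP kinase inactivates, at 1.60 (SE 0.18, adjusted p = 0.0178), and pnt, an activator that it switches on, at 1.38 (SE 0.19, adjusted p = 0.0315). The gene lz, whose product is known to act on pros and sv in cone cell precursors, stood at 56.0 FPKM at 120 h and 36.3 at 96 h in the eye part, against 6.76 and 2.41 in the antenna part. The calls of ro and pnt ended under 4 and 2 of the 7 alternatives that kept the separated parts, and all 6 ended when either eye library was left out. That of ro also ended without either whole disc library (0.1362 for 96 h and 0.1281 for 120 h), and that of pnt without the antenna part at 96 h (0.0754).

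Of the cone cell list, 0 of 6 genes were higher and 1 was lower, the homeobox gene ct, at -1.70 (SE 0.26, adjusted p = 0.0422). It is a cone cell marker that also acts in the antenna, and it stood at 11.6 FPKM at 120 h and 6.21 at 96 h in the eye part, against 29.1 and 30.8 in the antenna part. Its call ended under 5 of 7 alternatives (adjusted p up to 0.0789) and without each single library other than the antenna part at 120 h. Of the 10 sensory organ precursor genes 2 were higher, the zinc finger gene nerfin-1 at 3.19 (SE 0.22, adjusted p = 0.00594) and neur, a ubiquitin ligase gene of Notch signalling, at 1.52 (SE 0.15, adjusted p = 0.0119). In that list cato, a bHLH gene of chordotonal organs, was lower, at -2.43 (SE 0.31, adjusted p = 0.0272), with 1.85 FPKM at 120 h and 0.368 at 96 h in the eye part, against 17.0 and 5.27 in the antenna part. Its call ended under 3 of 7 alternatives (adjusted p up to 0.0766) and without either eye library. From 96 to 120 h in the antenna part, 1 library each, cato differed by log2 1.52 and phyl by 0.76. Of the 10 genes of this list only ato and pon were lower at 120 h there, by -0.023 and -0.16. A link of phyl with this list was not tested. Of the list of Ttk turnover and Sina partners, 3 of 5 genes were analysed here, limma called 0 of the 2 tested (0 with an unadjusted p under 0.05), and the larger estimate was that of Usp47, a deubiquitinase gene, at -0.065. The paralogue sinah was under 0.4 FPKM in both parts at both ages and stood at 24.3 FPKM in the whole larva at 120 h.

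**Figure D3:**
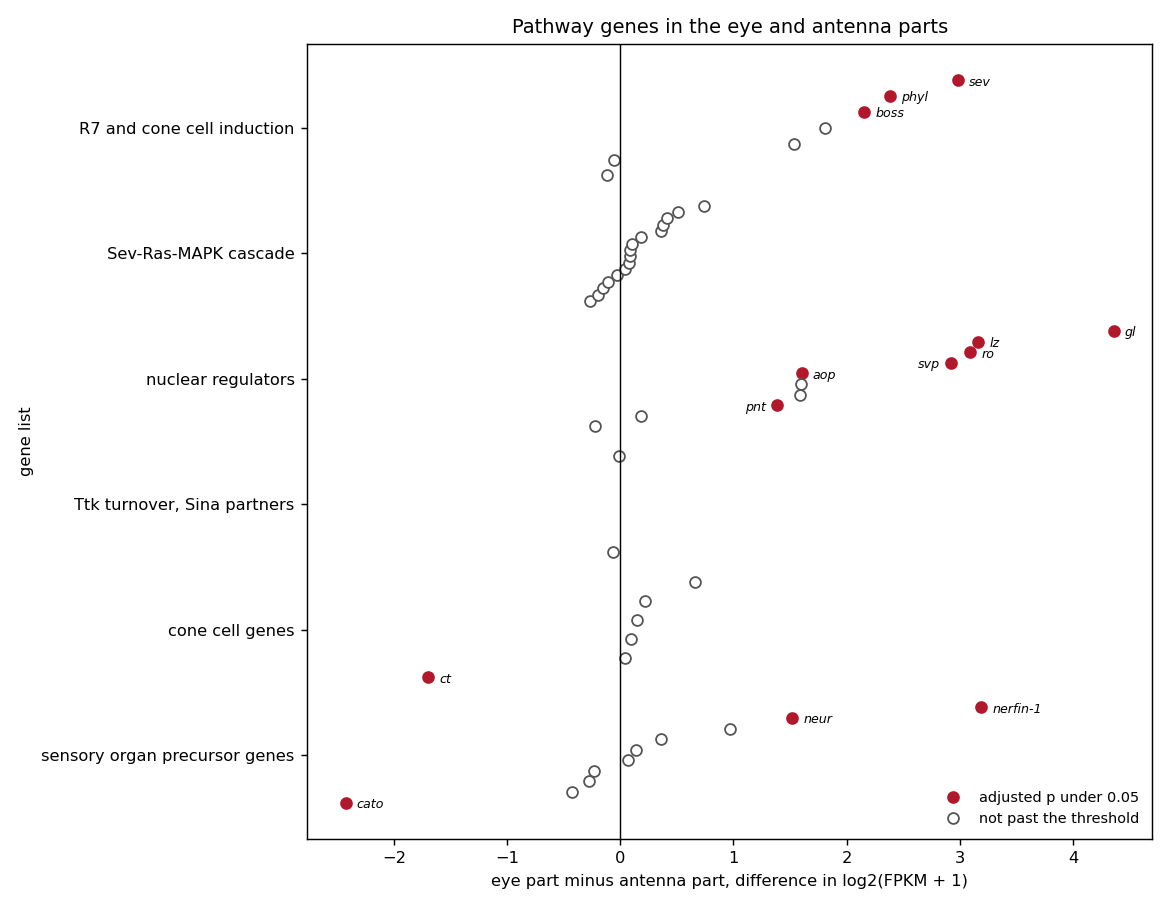
Difference of eye part minus antenna part in log2(FPKM + 1) for the 7 genes and for 5 lists of pathway genes, 1 point per gene, spread vertically within a list for legibility. Filled and named points passed a limma adjusted p of 0.05, among them 3 of the 7 genes, 6 of 10 nuclear regulators and 0 of 16 genes of the Sev-Ras-MAPK cascade, which lie between -0.27 and 0.74. The direction of boss, counted in the 3, was fixed by the filter. Open points to the right, such as sv at 1.81, did not pass.

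Tissue of 120 h was set against tissue of 96 h over both parts and whole discs together, to see which genes changed in late larval life. Limma called 0 of the 7 genes with an adjusted p under 0.05, and 0 without trend and robust estimation, against 2.11% of the 9081 genes tested. With an unadjusted p under 0.05 there were 3 of 7, against 18.2% of all genes: ttk, pros and sv. Their estimates were 0.62 for ttk (SE 0.13, adjusted p = 0.0920), 1.10 for pros (SE 0.25, adjusted p = 0.114) and 1.32 for sv (SE 0.32, adjusted p = 0.120). Each was higher at 120 h in 3 of 3 pairs, as were boss and sina. The whole disc contains the tissue of the parts, so that the 3 pairs are not independent. The steps of sina, 0.045, 0.067 and 0.15 in eye part, antenna part and whole disc, were under the library spread. That of boss in the antenna part was 0.017, at 0.0183 FPKM or less. The estimates of the 4 genes other than ttk, pros and sv ran from 0.087 for sina to 0.31 for sev, whose interval was -0.59 to 1.21. Without either antenna library, limma called sv (adjusted p = 0.0391 without that of 96 h and 0.0396 without that of 120 h).

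Within the eye part, 1 library against 1 and so without a test, sv was higher by log2 1.92 at 120 h than at 96 h and pros by 1.23. These were 2 of the 6 genes that reached 5 FPKM at either age, where 5.39% of 7531 genes were at least 2-fold higher. In the whole disc the same pair passed, by 1.42 and 1.41, where 5.89% of genes did. In both tissues sv and pros reached 5 FPKM only at 120 h, so that their direction was fixed by entering the count. Other markers moved in the same pair of eye parts. Neuron markers were higher at 120 h for 5 of 5 (sums of 178.6 FPKM at 120 h and 91.9 at 96 h) and glue genes for 5 of 5 (892.4 and 258.6), muscle markers for 0 of 4 (21.6 and 424.6) and fat body markers for 1 of 6 (90.1 and 452.6), and their part in the steps of sv and pros was not tested. The step of sev was 0.75 in the eye part and 0.78 in the whole disc, and -0.60 in the antenna part. In the antenna part, 0 of 3 eligible genes passed 2-fold, where 14.4% of 7493 genes passed in either direction. The steps of sv and pros there were 0.61 and 0.65, at levels under 2 FPKM, and that of phyl was 0.76. For ttk the step was alike in all tissues, at 0.50 in the eye part, 0.65 in the antenna part and 0.71 in the whole disc. In the same fit limma called 0 of 44 pathway genes (6 with an unadjusted p under 0.05), with lz nearest to the threshold at an estimate of 0.86 (adjusted p = 0.0746).

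Earlier, the whole disc at 96 h was set against that at 72 h, the interval in which the furrow starts to cross the eye part. The genes phyl, sev and ttk were at least 2-fold higher at 96 h, by log2 2.45, 2.03 and 1.03, and boss differed by 1.5 at levels under the 5 FPKM minimum. The difference of ttk lay just past the rule and was under it with a pseudocount of 5 (0.91) and with median-ratio scaling (0.99). These were 3 of the 4 genes with at least 5 FPKM, where 5.02% of 7842 genes were higher by this rule and 11.1% lower, and there is no replicate check. Both sev and phyl reached 5 FPKM only at 96 h, so that their direction was fixed by entering the count. The gene sina differed by 0.16, less than the library spread, and sv and pros by 0.55 and 0.57 at levels under 2 FPKM. Of the 45 pathway genes 14 were at least 2-fold higher and 0 lower, among them gl, with 68.7 FPKM at 96 h against 10.2 at 72 h, and lz, with 21.1 against 1.76. Of the 14, lz, svp, sens, salm, ac, sc and nerfin-1 reached 5 FPKM only at 96 h, so that their direction was fixed by entering the count.

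The WPP disc was set against the whole disc at 120 h, the step into metamorphosis. Only pros of the 7 genes was at least 2-fold higher, by log2 2.01, with 26.6 FPKM at WPP against 5.82 at 120 h. This was 1 of the 6 genes with at least 5 FPKM, where 5.04% of 7559 genes were higher and 9.34% lower, and it is a comparison of 2 libraries without a test. The next was ttk, at 0.75, and sina differed by -0.41. The genes sev, boss, phyl and sv differed by 0.12, -0.090, 0.029 and 0.18, less than the library spread. Of 45 pathway genes 1 was higher by the rule, neur, at 45.8 FPKM against 20.9, and 1 was lower, run, at 0.270 against 5.69. The gene run reached 5 FPKM only at 120 h, so that its direction was fixed by entering the count.

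The value of pros at WPP stands beside that of KP78b (FBgn0026063), the kinase gene within its span. KP78b was at 0.138 FPKM in the WPP disc against 31.2 in the whole disc at 120 h, so that it was at its lowest in the library where pros was highest. In the other 8 libraries of disc tissue KP78b was between 19.8 and 36.0 FPKM and pros between 0.593 and 7.87. In the antenna part at 96 h, where pros was lowest, it stood at 0.593 FPKM and KP78b at 30.1. In the whole larva both genes were higher at each later age, with pros at 2.10, 4.47 and 21.2 FPKM and KP78b at 1.38, 4.58 and 12.4 at 72, 96 and 120 h. How the fragments of this locus were divided between the genes in the WPP library was not tested, since the values hold no reads, and the difference of pros at WPP is therefore uncertain.

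Markers of other tissues that use pros also stand beside it. Of the 5 neuroblast and brain markers 3 were higher at WPP than at 120 h, with sums of 129.5 and 125.6 FPKM made up mainly by grh, which epithelia also use. The neuroblast gene wor was at 0.779 FPKM at WPP and 0.240 at 120 h, and mira at 2.43 and 2.55. Of 5 neuron markers 2 were higher (sums of 133.5 and 119.3), and of 4 glia markers 4 (65.9 and 47.5). Prospero is also known from enteroendocrine cells of the gut, whose markers NPF and AstC were listed at 0 in both libraries. The fat body markers were higher at WPP for 6 of 6, with sums of 488.3 and 46.7 FPKM, and the glue genes for 3 of 5, with 1036 and 211.8. The part of neuron, glia, fat body and gland tissue in the level of pros was not tested.

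**Figure D4:**
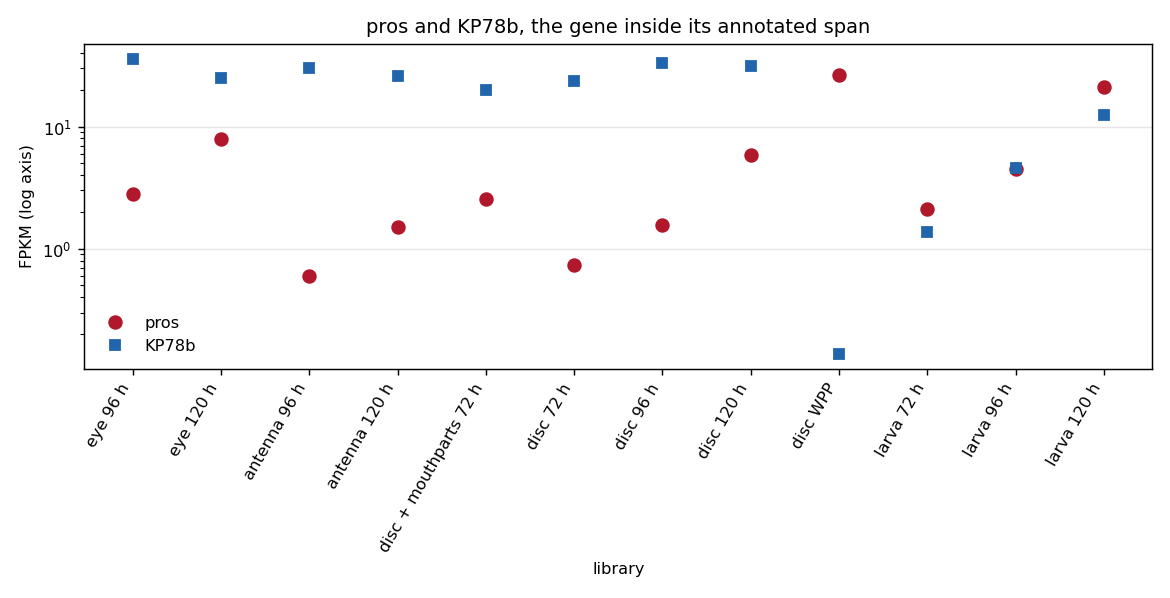
FPKM on a log axis of pros (circles) and of KP78b (squares), the gene on the other strand within its annotated span, in the 12 libraries. In the WPP disc pros stands at 26.6 and KP78b at 0.138, while in the other libraries of disc tissue KP78b lies above pros.

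The disc with mouthparts was set against the disc alone at 72 h, to see which genes the attached tissue brings. None of the 2 genes with at least 5 FPKM, sina and ttk, passed 2-fold, where 10.6% of 8026 genes passed in either direction. The differences of boss, phyl, sv, sev and sina lay between -0.084 and -0.00079, and that of ttk was 0.15. The exception was pros, at 2.54 FPKM with mouthparts and 0.733 without, a difference of 1.03 at levels under the minimum. Neuron markers were higher with mouthparts for 5 of 5 (sums of 46.1 and 25.3 FPKM), both enteroendocrine markers too (7.59 and 0.186), and muscle markers for 4 of 4 (10390 and 5727), and their part in the level of pros was not tested.

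The whole disc was compared with the whole larva at 72, 96 and 120 h to see which genes the disc is enriched for. The genes phyl, sv, sina and ttk were higher in the disc and pros was lower, 4 and 1 of the 7. Among them sv passed the filter of 1 FPKM in at least 2 libraries only through discs, as did boss, so that the differences of sv and boss were fixed by passing. Calls of sv, which is counted in the 4, and of boss therefore add no evidence in this comparison. Limma called 35.9% of the 9993 genes higher in the disc and 14.2% lower, and the median of all genes was 0.62, so that these counts stand against a large share of all genes. The median of the 7 was 1.25. The estimate for phyl was 2.45 (SE 0.43, adjusted p = 0.00241), for sv 1.5 (SE 0.49, adjusted p = 0.0314), for sina 1.37 (SE 0.35, adjusted p = 0.0119), for ttk 1.25 (SE 0.34, adjusted p = 0.0152) and for pros -1.21 (SE 0.43, adjusted p = 0.0426). Those of sev and boss were 1.01 (interval -0.026 to 2.05, adjusted p = 0.0926) and 1.09 (interval -0.036 to 2.21, adjusted p = 0.0945), and at 72 h, when neither was above 3 FPKM in the disc, they differed by -0.15 and 0.043. With median-ratio scaling, which moved the median of all genes to -0.049, the estimates of sv, sina and ttk were 1.21, 0.67 and 0.53 and their calls ended, and over all genes 1834 were called higher and 1934 lower, against 3588 and 1416 without it. The calls of phyl and pros were kept under that scaling, at 1.88 (adjusted p = 0.0281) and -1.73 (adjusted p = 0.0202). The enteroendocrine markers NPF and AstC summed to at most 1.20 FPKM in the disc at 72, 96 and 120 h and to at least 5.74 in the larva. Of 5 neuroblast and brain markers 4, 4 and 3 were higher in the disc at these ages, and of 5 neuron markers 2, 4 and 4. The neuroblast gene wor was at 0.427, 0.168 and 0.240 FPKM in the disc against 0.620, 0.979 and 2.01 in the larva. The part of these tissues in the difference of pros was not tested. The call of pros also ended with a pseudocount of 5 (0.0623) and a filter of 5 FPKM (0.0589), and that of sv with a pseudocount of 5 (0.0653). Without the 96 h disc limma called 0 of the 5 genes tested, without the 96 h larva 1 of 7, and without the 120 h disc or larva 2. Without the 72 h disc or larva it called 6, sev and boss among them (adjusted p from 0.00788 to 0.0172) and not sina (0.0933 and 0.0893).

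In the whole larva itself pros, sev and sina were at least 2-fold higher at 120 h than at 96 h, by log2 2.02, 1.46 and 1.00. By this rule 25.1% of 8171 genes were higher, and the median of all genes was 0.61, so that sina lay near the shift of the table. Both pros and sev reached 5 FPKM in the larva only at 120 h, so that their direction was fixed by entering the count. From 72 to 96 h, 0 of 2 eligible genes of the 7 passed in the larva, where 27.1% of 7415 genes passed in either direction. The level of sev in the larva at 120 h, 9.39 FPKM, stood beside 23.8 in the disc of that age, and that of boss, 0.230 FPKM, beside 3.06.

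Of the 45 pathway genes 30 were higher in the disc than in the larva and 0 lower, where 35.9% of all genes were higher, and the median of the 45 was 1.39 against 0.62 over all genes. With median-ratio scaling 17 were called, Raf, dos and RasGAP1 of the cascade, 4 nuclear regulators, 5 of the cone cell list and 5 sensory organ precursor genes. In the Sev-Ras-MAPK cascade 12 of 16 were higher without that scaling, with a median of 1.33, led by RasGAP1 at 2.32 (SE 0.35, adjusted p = 0.00142), followed by dos, an adaptor gene, at 1.61 and 14-3-3epsilon at 1.60. Of the nuclear regulators 7 of 10 were higher, led by gl at 4.36 and aop at 2.99. Of the cone cell list 5 of 6 were, N at 3.11, Delta at 2.91, spi at 2.74, Egfr at 1.85 and Su(H) at 1.75, which are the receptors, ligands and effector of Notch and EGF signalling. Of the sensory organ precursor genes 6 of 10 were, led by the proneural gene ato at 4.34. Of the Ttk turnover list limma called 0 of 3 (2 with an unadjusted p under 0.05), with sinah at -2.26 (adjusted p = 0.0571).

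Across the 9 libraries of disc tissue, which share parts of the same tissue and ages, the 7 genes fell into different patterns. On log2(FPKM + 1), Pearson's r reached 0.991 between sev and boss, 0.952 between boss and phyl and 0.925 between sev and phyl. It was 0.846 between pros and sv and 0.881 between sev and sv. Between sina and the other 6 it ran from -0.33 (pros) to 0.26 (ttk), with sina between 21.5 and 31.1 FPKM. The 5 genes sev, boss, phyl, pros and sv carry the number 2 in the clusters of the authors' deposited table, which holds 9.4% of all genes, ttk the number 3 and sina, like KP78b, the number 8. The cluster numbers come with the same table and are no independent evidence.

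For each gene the 3 genes with the most similar profile over these 9 libraries were taken from 7736 genes, with r from 0.933 to 0.996. They were CG5281, gogo and elav for sev, and X11Lbeta, fipi and SP2353 for boss. For phyl they were rst, mdu and superdeath, for ttk tw, Egfrap and neo, and for sv shep, Tmtc1 and Sidpn. For pros they were CG32354, retm and SoxN, with r of 0.961, 0.958 and 0.951, and for sina CG9886, morgue and exd, with 0.958, 0.937 and 0.933. Like sina, CG9886 and exd varied little over the 9 libraries, from 4.27 to 5.52 FPKM and from 113.2 to 159.0, while morgue ran from 11.5 to 34.4. Over all 12 libraries 5 of these 21 genes stayed among the first 3, gogo for sev, X11Lbeta and SP2353 for boss, rst for phyl and Egfrap for ttk. Over the 12 libraries mdu was less like phyl (r of 0.34) and CG9886 ran opposite to sina (r of -0.76). The RNA-binding protein gene elav, a common marker of neurons, stood at 81.4 FPKM at 120 h and 52.4 at 96 h in the eye part, against 15.8 and 16.8 in the antenna part.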

How the data were processed

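The authors' deposited table holds 1 value per gene and library, read here as FPKM, and 1 cluster number per gene. No header names the unit, but the values are not whole, and TopHat, Cufflinks and dm3 appear per the submitters' processing notes. The sources used here give no annotation, strand setting or filter. Depth is unknown, because at most 6 of 51 genes under 0.05 FPKM shared 1 ratio between libraries, so no counting interval is given. A symbol from the reference annotation BDGP6.54 was found for 10308 identifiers (94.6%). Coordinates are not printed, as its build differs, and sequences were not used here.

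Two-sided tests were run with limma 3.58.1 in R 4.3.3 on log2(FPKM + 1), over genes that reached 1 FPKM in 2 or more libraries, using eBayes with trend and robust. P-values were adjusted by Benjamini-Hochberg over all genes tested, with a threshold of 0.05. One model took the 6 libraries of parts and whole discs of 96 and 120 h. The other took the 6 libraries of whole discs and larvae of 72, 96 and 120 h. Each had terms for tissue and for age, and 2 residual degrees of freedom, so that a real interaction between tissue and age is part of the error. P-values measure only the spread between these libraries, which may be technical. The fits were also run on simulated data with independent noise, no effect of age and no tissue shared between libraries. Such data differ from these libraries and cannot test the calls made here. Pairs of single libraries were read by a rule of size, 1 or more in log2(FPKM + 1) where the higher of them reached 5 FPKM. Alternatives were other pseudocounts, filters, scalings, eBayes settings and fold rules, and leaving out libraries. Similar genes reached 5 FPKM in 2 or more of 9 libraries.

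The named genes were the 7, overlapping genes, pathway genes past a test (or the largest estimate of a list) and the 3 most similar genes. Ras85D, drk, Sos and elav's levels, and the genes named from pairs of libraries, were chosen after their values were seen. The 7 genes, the lists and the tests were chosen with earlier results of these data known. The older names Gap1, Dl and TK were carried to RasGAP1, Delta and Tk. The pathway genes cnk, ebi, mbl and Crys and all 6 genes of a male germ line list were not analysed here. Python 3.11.15, pandas 2.3.3 and numpy 2.4.6 were used.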

Additional observations from a re-analysis of the deposited data

Results flagged for a closer look

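The genes below had differences of opposite sign under the same contrast in 2 settings, with 1 library each, and none of these differences was tested. Only for the steps of sev in eye and antenna parts did both values exceed the library spread of 0.23. In every other case at least 1 of the opposed values lay within it, so that a change of direction is uncertain there. The step of sev from 96 to 120 h was 0.75 on the log2(FPKM + 1) scale in eye parts and -0.60 in antenna parts. That of phyl was -0.11 in eye parts and 0.76 in antenna parts. In the whole disc the 96 to 120 h step of phyl was -0.18, and in the whole larva it was 0.53. From 72 to 96 h sev differed by 2.03 in the whole disc and -0.050 in the whole larva, and sv by 0.55 in the disc and -0.016 in the larva, both at larval levels under 3 FPKM. The difference of disc minus larva for sev was -0.15 at 72 h, 1.93 at 96 h and 1.26 at 120 h. The difference of eye minus antenna part for ttk was -0.14 at 120 h and 0.018 at 96 h, less than the library spread.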

How the results depend on the processing

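No paired analysis was possible because every group had 1 library and the labels carry no replicate numbers that groups share. Leaving out 1 library at a time, limma called between 0 and 5 of the 7 genes for eye against antenna part (3 with all libraries, and a part left with 1 library is assumed to vary like the rest), between 0 and 1 for 120 h against 96 h (0) and between 0 and 6 for disc against larva (5). Of the pathway genes it called between 0 and 10 (10), between 0 and 1 (0) and between 10 and 29 (30). For eye against antenna part the count of the 7 was 1 with median-ratio scaling, phyl, and 1 under eBayes with neither trend nor robust, boss. The filter fixed the direction of boss, so that this last call adds no evidence. The count of the pathway genes was 6 with no filter on low values. For disc against larva the count of the 7 was 3 with a pseudocount of 5, 3 with a filter of 5 FPKM and 2 with median-ratio scaling, and for the pathway genes 17 with that scaling. That filter leaves boss and sv untested. The cause of the other changes was not tested.

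Over all genes, eye against antenna part gave 285 calls (179 with no filter on low values), 120 h against 96 h 192 (between 95 and 355 over the settings that kept both eye libraries), and disc against larva 5004 (1345 without the 96 h disc and 1976 without the 96 h larva). Without either eye library both contrasts of the first fit gave 1.

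For single pairs, the count for the disc at 96 h against 72 h was 2 with a pseudocount of 5, with a 3-fold rule and with median-ratio scaling (3). The count was 2 at 1.5-fold for WPP against 120 h (1 at 2-fold) and for the antenna part (0 at 2-fold), and 1 with no minimum FPKM for discs with mouthparts (0). It was 1 for the eye part with a pseudocount of 5 or a 3-fold rule (2), and 1 for the larva at 120 h with a pseudocount of 5, a 3-fold rule or median-ratio scaling (3). Leaving out single libraries moved ttk in eye against antenna part between -0.15 and 0.032 (the positive value without the eye part at 120 h), and phyl in 120 h against 96 h between -0.15 (without either antenna library) and 0.32, none of them called. With the depth unknown, no counting error can be given for low values such as those of boss and sv in the larva, at 0.383 FPKM or less.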
